A study of Mus musculus with 4 samples.

Results

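Internal alternative promoters are the places inside a gene where shorter transcripts begin, downstream of the gene's outermost start. They were studied here through peaks of trimethylation of lysine 4 on histone H3 (H3K4me3), mapped by chromatin immunoprecipitation and sequencing in the left cerebral cortex of mice. A peak was taken when at least 1 of its bases lay within 1000 bases of a protein-coding transcript start that was at least 10000 bases downstream of the 5'-most annotated start of its gene. Peaks that came as close to the 5'-most start of any protein-coding gene were left out. Of the 25446 peaks of the replicated list, 1364 (5.36%) were taken, and they covered 2.68 Mb or 7.16% of all peak bases. They lay in 1004 genes.

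The tissue came from adult female B6CASTF1/J mice aged 2 months, a first-generation cross of C57BL/6J with CAST/EiJ, and the labels named no treatment. Biological replicate 1 was pool J and replicate 2 was pool I, each combining 4 biosamples and sequenced as 2 technical replicates, which gave 4 libraries. The donor record was the same for all of them, and both libraries of a pool entered 1 alignment and 1 peak list. Technical spread could therefore not be measured, the depth behind each list was unknown, and values of the pools are given side by side with no test. Widths in parentheses after a peak are those of the widest overlapping peak in each pool, pool J first. In a bulk hybrid tissue, fewer cells of a type, less signal per cell and signal from 1 parental allele cannot be told apart.

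H3K4me3 is deposited on nucleosomes around sites where transcription begins, most of all where the sequence is rich in CpG dinucleotides. A gene with several promoters can give proteins that differ at their amino terminus, as the neurexins do, or transcripts that share a protein but answer to different signals. Such promoters are frequent in long neuronal genes.

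Sequences just upstream of both kinds of start are shown for 5 genes that stand for the patterns described below. Each line gives the 120 bases before a start, 5' to 3' on the strand of the gene, from the RefSeq sequence of GRCm38.p6, the mm10 build, with CpG dinucleotides in capitals. None of these stretches met an annotated exon. The internal start is the outermost one of the group of starts under the peak. Cacna1c, the pore subunit of an L-type calcium channel, and Shank2, a scaffold of the postsynaptic density, were marked inside the gene and not at their 5'-most start. Mia3, a factor for the export of large cargo from the endoplasmic reticulum, was marked at both, with CpG-rich sequence at both. Pde4a, a cyclic AMP phosphodiesterase, and Dst, a linker of the cytoskeleton, were marked at both, with few CpG dinucleotides at the internal start.
Cacna1c internal start, chr6:119108574-119108693, minus strand: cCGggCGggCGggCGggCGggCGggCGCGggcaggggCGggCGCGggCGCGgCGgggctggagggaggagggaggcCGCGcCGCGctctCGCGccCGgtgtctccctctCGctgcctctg
Cacna1c 5'-most start, chr6:119196419-119196538, minus strand: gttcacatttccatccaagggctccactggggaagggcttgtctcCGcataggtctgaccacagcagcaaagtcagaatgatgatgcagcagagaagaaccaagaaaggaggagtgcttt
Shank2 internal start, chr7:144284319-144284438, plus strand: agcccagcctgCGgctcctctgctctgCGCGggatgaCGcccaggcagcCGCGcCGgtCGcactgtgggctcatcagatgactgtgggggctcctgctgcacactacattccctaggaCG
Shank2 5'-most start, chr7:144001808-144001927, plus strand: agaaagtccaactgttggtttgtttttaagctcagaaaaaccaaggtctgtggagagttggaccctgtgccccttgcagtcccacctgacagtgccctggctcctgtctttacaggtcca
Mia3 internal start, chr1:183345297-183345416, minus strand: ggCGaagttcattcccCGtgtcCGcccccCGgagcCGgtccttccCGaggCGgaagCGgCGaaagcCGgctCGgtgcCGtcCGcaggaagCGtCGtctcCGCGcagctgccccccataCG
Mia3 5'-most start, chr1:183369554-183369673, minus strand: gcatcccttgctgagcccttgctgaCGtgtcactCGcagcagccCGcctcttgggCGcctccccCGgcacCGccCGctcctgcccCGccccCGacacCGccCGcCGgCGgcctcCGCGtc
Pde4a internal start, chr9:21196585-21196704, plus strand: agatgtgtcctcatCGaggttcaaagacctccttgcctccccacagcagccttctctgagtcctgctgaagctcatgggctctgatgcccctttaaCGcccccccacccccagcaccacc
Pde4a 5'-most start, chr9:21165594-21165713, plus strand: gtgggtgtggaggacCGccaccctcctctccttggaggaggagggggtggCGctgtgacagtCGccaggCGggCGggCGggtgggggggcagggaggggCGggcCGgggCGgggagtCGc
Dst internal start, chr1:34005760-34005879, plus strand: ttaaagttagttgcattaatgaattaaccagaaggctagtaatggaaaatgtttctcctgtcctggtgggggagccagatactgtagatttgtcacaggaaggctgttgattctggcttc
Dst 5'-most start, chr1:33908105-33908224, plus strand: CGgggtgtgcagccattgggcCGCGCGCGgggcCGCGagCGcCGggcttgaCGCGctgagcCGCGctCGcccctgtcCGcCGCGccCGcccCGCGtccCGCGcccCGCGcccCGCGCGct
The Cacna1c stretches held 22 CpG dinucleotides at the internal start and 1 at the 5'-most start, and those of Shank2 held 9 and 0. For Mia3 the counts were 18 and 15. Pde4a held 2 at the internal start and 10 at the 5'-most start, and Dst held 0 and 27.

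The main question was whether a gene with a marked internal promoter is also marked at its 5'-most start. It was in 687 of the 1004 genes (68.4%, 95% Wilson interval 65.5 to 71.2%), and in 317 genes (31.6%) the internal peak stood without one. In 125 of the 687 (18.2%, 15.5 to 21.3%) the 5'-most peak also met the 5'-most start of another coding gene. The signals of the 2 genes cannot be told apart there. These and all later intervals cover counting error only. The background was 61.6% of all 21938 protein-coding genes, 74.1% of the 3847 genes with an internal start to test, and 76.1% of the 2844 of these that had no internal peak. The share among genes with an internal peak was thus above that of all coding genes and below that of genes of the same build. By the pool J list alone the share was 66.2% (63.1 to 69.1%) of 950 genes, with 60.4% of all coding genes marked there, and by the pool I list 67.7% (64.7 to 70.5%) of 981, with 61.2%. Gene by gene, the 5'-most start was marked in both pools in 671 genes and in neither in 320, in pool I alone in 11 and in pool J alone in 2. Of the 317 genes marked inside only, 301 had an internal peak and an unmarked 5'-most start in the replicated list and in both pool lists. The replicated list and the pool lists share their libraries, so they are not independent of each other.

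The 317 unmarked 5'-most starts mostly lay far from any peak. The nearest peak of any kind lay a median of 15204 bases away (interquartile range 9757 to 30653), and in 18 genes (5.68%) it lay within 2500 bases. A further start less than 10000 bases downstream of the 5'-most was annotated in 144 of these genes and marked in 35 of them. Of the 687 genes with a marked 5'-most start, 493 had such a start and 485 had it marked, where the peak of the 5'-most start can itself reach it. A transcript of support level 1, the best supported class of the annotation, began at 36.3% (31.2 to 41.7%) of the unmarked 5'-most starts and at 51.5% (47.8 to 55.2%) of the marked ones. A coding transcript began at 74.1% and 78.6% of them. The part of annotation quality in the difference was not tested.

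Measured per gene with an internal start, 1003 of 3847 (26.1%, 24.7 to 27.5%) had at least 1 marked internal promoter. By pool, the share was 24.7% (J) and 25.5% (I). It was 39.9% with starts from transcripts of the annotation's basic set only, and 38.2% when starts tagged as not found in full were left out, a choice made after seeing the data. Starts up to 1000 bases apart were merged, which gave 6102 internal promoters, of which 1299 (21.3%) were marked.

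Which internal starts carried a peak differed by how the annotation describes them. Of 3081 promoters inside an intron of the gene's upstream transcripts, 1192 were marked (38.7%, 37 to 40.4%), and of 3010 inside an exon 106 were (3.52%, 2.92 to 4.24%). Promoters with at least 1 start annotated as complete were marked in 33.8% of 3698 cases, and those with none in 2.08% of 2404. Incomplete starts lay mostly in exons, and among complete starts the shares were 40% in introns and 9.62% in exons. Support went the same way, from 37.9% of 2346 promoters at level 1 to 7.19% of 1127 at level 3 and 11.8% of 1599 at level 5. Promoters shared by 3 or more transcripts were marked in 63.4% of 527 cases, those with 2 in 38% of 805, and those with 1 in 13.8% of 4770. Where the coding sequence began further downstream in the genome than from the 5'-most start, 592 of 1548 promoters (38.2%) were marked. Protein sequences were not compared. Where the coding start was shared, 375 of 1574 (23.8%, 21.8 to 26%) were, and where it lay elsewhere 107 of 203 (52.7%, 45.9 to 59.5%) were. For the largest class, 2777 promoters whose coding starts could not be compared, the share was 8.1%. A start of another gene of any type also lay in 167 of the 1364 peaks (12.2%), and in 85 of them it belonged to an antisense RNA, whose signal cannot be told apart from that of the coding start.

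The CpG content of the start separated marked from unmarked internal promoters. The observed-to-expected CpG ratio of the window around the start had a median of 0.420 (interquartile range 0.297 to 0.611) at the 1299 marked internal promoters and 0.217 (0.162 to 0.274) at the 4803 unmarked ones. At the 13520 marked 5'-most starts of all coding genes it was 0.618, and at the 8418 unmarked ones 0.173. Marked internal promoters were thus less CpG-rich than marked 5'-most starts, and 45.9% of them (43.2 to 48.6%) against 12.3% (11.8 to 12.9%) had a ratio under 0.4. Within the genes, marked internal promoters had a median of 0.386 where the 5'-most start was marked too and 0.530 where it was not. The 5'-most starts themselves had a median of 0.608 when marked and 0.222 when unmarked. The 5'-most starts that lacked a peak were thus for the most part CpG-poor, as in Cacna1c and Shank2. A ratio of at least 0.6 was found at 4 of the 317 unmarked starts, among them those of Gnas (0.683), Pfdn4 (0.662) and H60b (0.604).

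**Figure D1:**
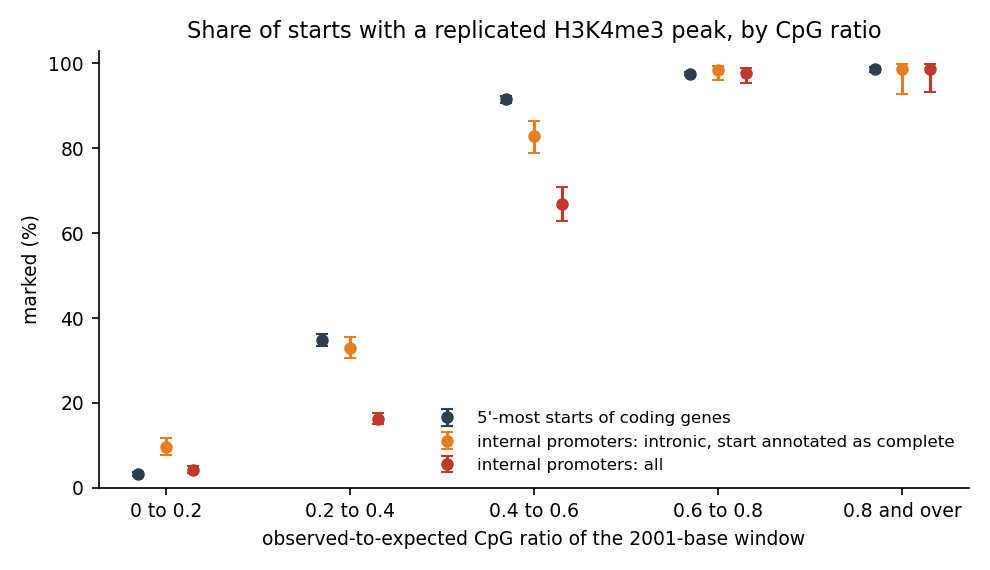
Share of starts with a replicated H3K4me3 peak (%, y axis) by the observed-to-expected CpG ratio of the window around the start (x axis), for 5'-most starts of coding genes, all internal promoters, and intronic internal promoters whose start is annotated as complete. Bars are 95% Wilson intervals; at ratios of 0.6 and over, 97.6% or more of internal and of 5'-most starts were marked, and at 0.4 to 0.6 internal promoters (66.9%) lay below 5'-most starts (91.6%).

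At a given CpG ratio the kinds of start differed only in part. At a ratio of 0.6 to 0.8, 271 of 277 internal promoters (97.8%, 95.4 to 99%) and 97.6% of 5650 5'-most starts were marked, and at 0.8 and over 80 of 81 (98.8%) and 98.7%. At 0.4 to 0.6 the shares were 66.9% (62.8 to 70.8%) and 91.6% (90.8 to 92.4%), and at 0.2 to 0.4 they were 16.3% and 34.8%. Intronic internal promoters with a complete start lay closer to the 5'-most starts, at 83% (78.9 to 86.4%) and 33% (30.6 to 35.6%) in these ranges. Under 0.2 they exceeded them, with 9.65% (7.85 to 11.8%) against 3.22% (2.78 to 3.74%). The 5'-most starts were those of all coding genes, with no filter on completeness or support. The filtered internal promoters are thus set against an unlike group. Among the marked internal promoters the median peak width went from 1056 bases under a ratio of 0.2 to 1546, 1842, 2127 and 2535 bases in the higher ranges.

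Short motifs were searched on both strands from 250 bases before to 50 bases after each start. GGGCGG, the core of the GC box, was found at 41.7% of marked and 6.81% of unmarked internal promoters, against 62.7% of marked and 11.4% of unmarked 5'-most starts of all coding genes (43% of all). TATAAA, the core of the TATA box, was found at 8.47% of marked and 18.5% of unmarked internal promoters, and at 7.03% of marked and 21.7% of unmarked 5'-most starts (12.6% of all). CCAAT was at 34% of marked and 33.4% of unmarked internal promoters, and at 38.2% of marked and 40.4% of unmarked 5'-most starts (39% of all). The palindromic cyclic AMP response element TGACGTCA was at 25 of the 1299 marked internal promoters (1.92%), at 0.354% of the unmarked ones, and at 3.4% of marked and 0.879% of unmarked 5'-most starts (2.43% of all). GGGCGG contains a CpG dinucleotide and TGACGTCA another, so these counts are not independent of the CpG ratio. A match describes the letters only.

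In shape the internal peaks came near those of the 5'-most starts, with lower enrichment. Their median width was 1688 bases (interquartile range 881.5 to 2627, extremes 188 and 10293), against 1818 (1247 to 2521) for the 13199 peaks at 5'-most coding starts and 496 (328 to 769) for the 7982 peaks outside every annotated start window. Their median enrichment, the authors' fold value for each peak, was 12.5 (5.47 to 19.5), against 19.7 and 3.87 in those classes. A -log10 q of at least 10 was reached by 80.8% of the internal peaks, 93.2% of the 5'-most peaks and 37.7% of the peaks outside. Both ends of the width range were filled more than at 5'-most starts, since 115 internal peaks (8.43%) were wider than 4000 bases against 5.98%, and 158 (11.6%) were narrower than 500 bases against 6.22%. Internal peaks in genes with an unmarked 5'-most start (414) had a median enrichment of 14.8 and a median width of 1664 bases. Those in genes with a marked one (950) had 11.8 and 1700 bases.

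**Figure D2:**
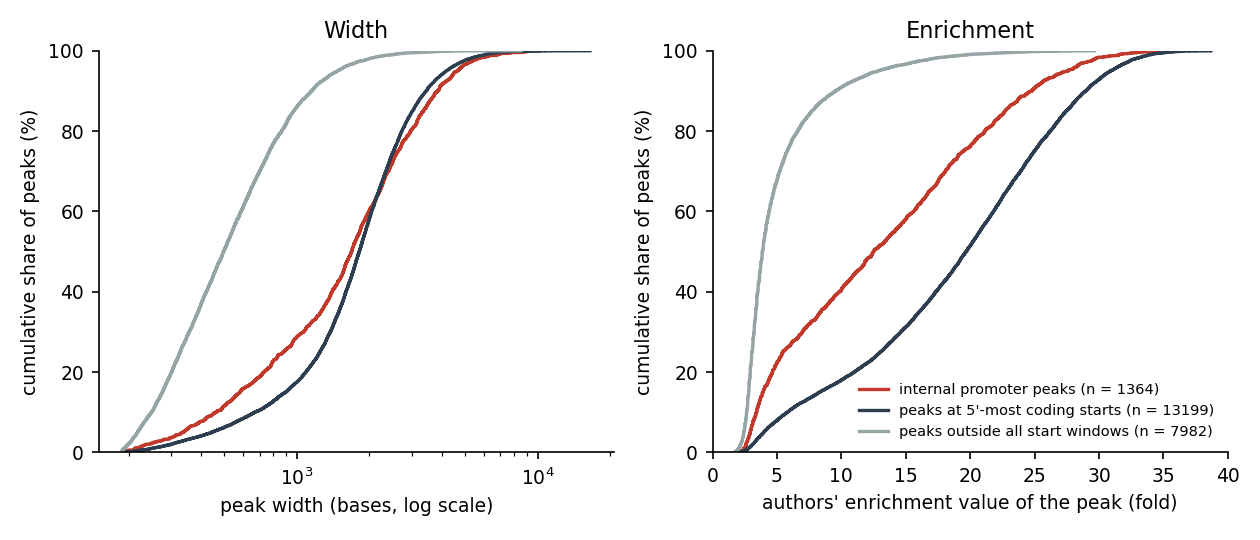
Cumulative share of peaks (%, y axes) by width in bases on a log scale (left) and by the authors' enrichment value in fold (right), for internal promoter peaks (n = 1364), peaks at 5'-most coding starts (n = 13199) and peaks outside all start windows (n = 7982). The internal promoter curve lies near that of the 5'-most starts in width, with medians of 1688 and 1818 bases, and between the other classes in enrichment, with a median of 12.5.

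The peaks were placed asymmetrically around the start, as at other promoters. Where a peak met several starts, the start nearest its centre was used, which favours a start inside the peak. The start lay inside the peak for 81.1% of the members, with a median of 574.5 bases of the peak upstream and 1280 downstream of it. More of the peak lay downstream in 83.7% of these, against 88.6% of peaks at 5'-most starts, where the medians were 563 and 1289 bases. The highest point lay downstream of the start in 72.7% of internal peaks and in 84.3% of 5'-most peaks.

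Most members were found in both pools. Of the 1364, 1202 (88.1%, 86.3 to 89.7%) overlapped a peak in each pool's list, against 95.9% of the 5'-most peaks and 55.2% of the peaks outside start windows. The replicated list drew on the same libraries as the pool lists, so this overlap is not an independent check. Pool J held 1233, pool I held 1285, and 48 overlapped no peak of either list. For the 1202, pool I width over pool J width had a median of 1.08 (interquartile range 0.989 to 1.23), and 86.2% agreed within 1.5-fold. Some domains were called as 1 peak in a pool and as several in the other. In Tcf4, the widest internal peak measured 8866 bases in pool I, while the widest of 2 pieces in pool J measured 6111 bases and the pieces together covered 8315 bases of the replicated peak.

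**Figure D3:**
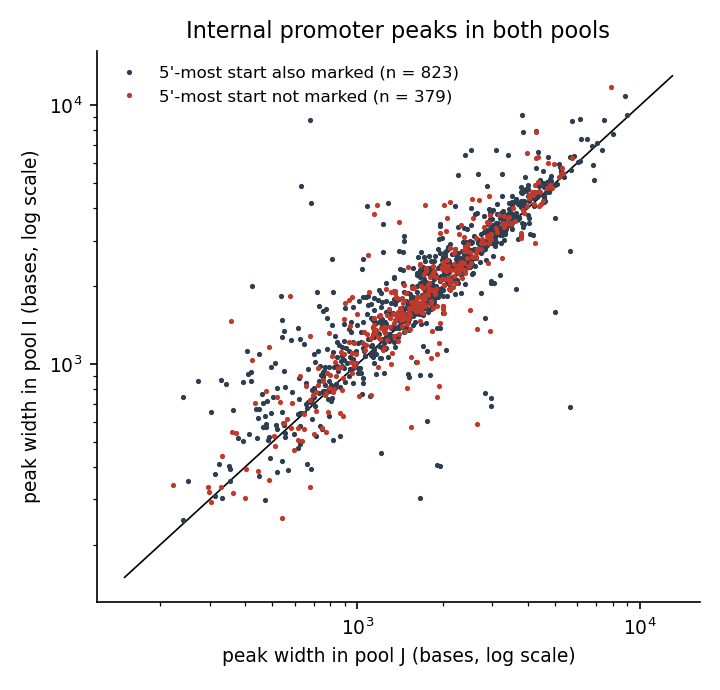
Width of the widest overlapping peak in pool I (y axis) against pool J (x axis), both in bases on log scales, for the 1202 internal promoter peaks found in both pools, with the 5'-most start of the gene marked (n = 823) or not (n = 379). The line marks equal widths; 86.2% of the peaks lie within 1.5-fold of it, and the median of pool I over pool J width is 1.08.

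Within the 687 genes marked at both places, the widest internal peak was set beside the widest peak at the 5'-most start. A gene can hold several internal peaks, so taking the widest favours the internal side. The internal peak was the wider in 335 genes (48.8%, 45 to 52.5%), and the median ratio of internal to 5'-most width was 0.957 (interquartile range 0.541 to 1.62). This ratio did not keep its side of 1, since it was 1.03 and 1.08 with peaks of -log10 q of at least 5 and 10. In 120 genes the internal peak was at least 2 times as wide, and in 158 the 5'-most peak was. This widest internal peak had the higher enrichment in 243 genes (35.4%, 31.9 to 39%), though it was not always the strongest internal peak of its gene. In 125 genes the 5'-most peak also met the 5'-most start of another coding gene.

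Distance from the 5'-most start went with both measures. Marked internal promoters lay a median of 45650 bases downstream (interquartile range 20594.5 to 116662), and unmarked ones 36518 bases. The marked share was 19.8% (17.9 to 21.8%) at 10 to 20 kb, 18.7% at 20 to 50 kb, 21.4% at 50 to 100 kb, 23.6% at 100 to 200 kb and 30.5% (26.9 to 34.2%) beyond 200 kb. The share of these with a marked 5'-most start went from 55.6% (50.1 to 61%) in the nearest range to 87% (81.3 to 91.1%) in the farthest. That share was not computed by distance for unmarked internal promoters, so whether the trend is particular to marked ones is unknown. Genes with both marked were longer, with a median length of 122471 bases against 80719 bases for genes marked inside only. Gene length and distance cannot be told apart here, since a distant start needs a long gene.

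**Figure D4:**
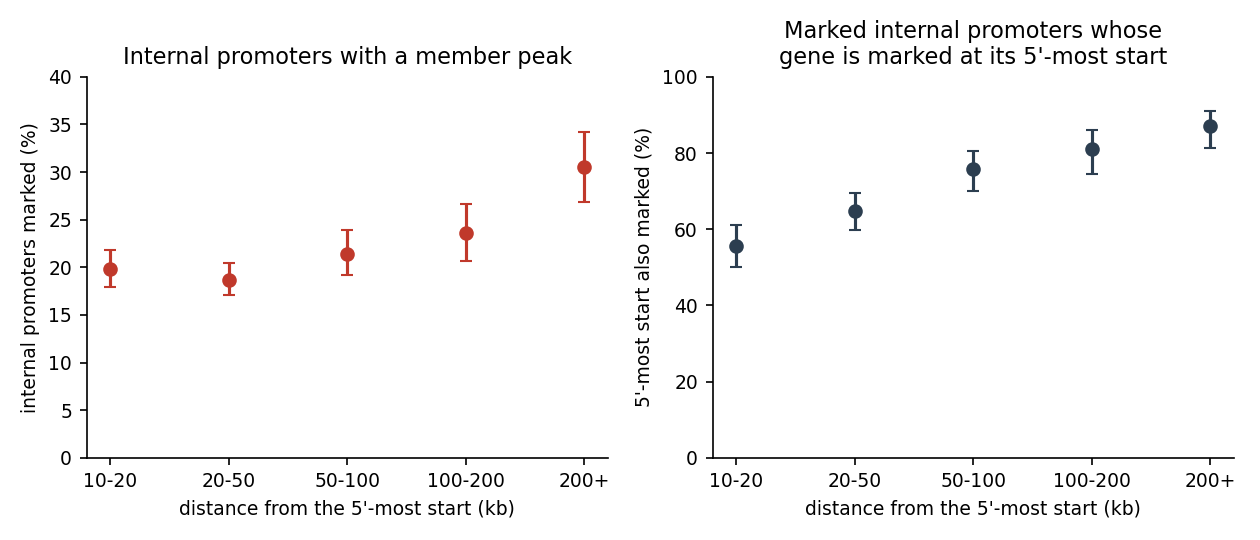
Left, share of the 6102 internal promoters that carried a peak (%); right, share of the marked ones whose gene was also marked at its 5'-most start (%), both by distance from the 5'-most start in kb, with 95% Wilson intervals. The left share goes from 19.8% in the nearest range to 30.5% in the farthest, and the right share from 55.6% to 87%.

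The threshold of 10000 bases fell among strong and weak peaks, with enrichments from 23.4 in Sept4 to 2.9 in Dlg4. Just above it lay Zfp458 at 10002 bases (a zinc finger gene, 1234 bases wide), Sept4 at 10025 (a septin, 2195 bases) and Dlg4 at 10057 (a major scaffold of excitatory synapses, 211 bases). Just below it lay Fpgs at 9960 bases (1376 bases wide), Cc2d2a at 9943 (1014 bases) and Tepp at 9930 (680 bases).

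The 10 widest internal peaks lay in 9 genes and measured 7051 to 10293 bases. The widest was in Nr3c1, the glucocorticoid receptor, with 10293 bases (8832 and 10838), against a peak of 1023 bases at its 5'-most start. Nfix and Nfib, which encode nuclear factor I proteins, came next. The Nfib internal peak (chr4:82499755-82508770, mm10 as for all positions here, at an intronic start) measured 9016 bases (9002 and 9200), and its 5'-most start carried 438 bases, absent from the pool J list and 592 in pool I. The Nfix internal peak measured 9154 bases over a CpG-poor window with a ratio of 0.334, while its 5'-most start, with a ratio of 0.989, carried 2193 bases. Each pool held the Nfix domain as 2 pieces, which covered 8909 (J) and 8988 (I) bases of it. Sgk1, a kinase induced by serum and glucocorticoids, had an internal peak of 8949 bases against 3897 at its 5'-most start. Mef2c and Zmynd8, a transcription factor and a chromatin reader, had internal peaks of 8695 (7899 and 11791) and 7793 bases (4274 and 7852) and no 5'-most peak in the replicated list or in either pool. In pool J the Mef2c domain was called as 2 pieces and that of Zmynd8 as 3, and each was 1 peak in pool I. Sox5 had 7675 bases inside and 2578 at its 5'-most start.

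Tcf4, a basic helix-loop-helix factor of neurons, was marked at 7 of 8 internal promoters. Its widest internal peaks measured 8537 bases (6111 and 8866) and 7486 bases (6475 and 7392), beside a 5'-most peak of 8028 bases (7268 and 8077). Both pool J values are those of the widest of 2 pieces. Its other 3 internal peaks were narrower, at 1837, 576 and 365 bases. The 576-base peak was absent from both pool lists and the 365-base peak from that of pool J.

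The 10 internal peaks of highest enrichment had values of 32.2 to 36.6. Nfkbiz, a nuclear regulator of NF-kappaB, led, at an intronic start (chr16:55820133-55822857), with an enrichment of 36.6 and a width of 2725 bases (2762 and 2750), and its 5'-most start carried 1472 bases. Ostm1, a subunit of a lysosomal chloride transporter, had 34.9 and 1938 bases, Sertad2 had 33.8 and 2321 bases, and Mia3 had 32.4 and 1699 bases, all with a marked 5'-most start. Of all 1364 internal peaks 414 were in genes with no 5'-most peak, and of the 10 highest 5 were. These were Ppp2r1b, a scaffold subunit of protein phosphatase 2A (33.8, 1772 bases), Pid1 (33.3, 2944 bases), Pfdn4, a subunit of the prefoldin chaperone (33.1, 1497 bases), 5730480H06Rik (32.9, 1296 bases) and Med15, a subunit of the Mediator complex (32.2, 1969 bases). Their pool values were close, at 1514 and 1503 bases in Pfdn4 and at 2914 and 2939 in Pid1. The next in this group were Psmd9, a chaperone of proteasome assembly (31.8), Iqgap1, a scaffold of the actin cytoskeleton (31.2), Lpin1, a phosphatidate phosphatase (30.7), Inip (29.9) and Pdcd4, an inhibitor of translation (29.9). In 9 of these 10 genes the ratio of CpG at the internal start exceeded that at the 5'-most start, for example 0.801 against 0.167 in Pdcd4 and 0.688 against 0.147 in Inip. Pfdn4 was the exception, with 0.626 and 0.662.

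The synaptic adhesion and scaffold genes had the highest share of members among the 7 lists examined, with intervals that overlapped those of the others. Of 27 such genes with an internal start 22 were members (81.5%, 63.3 to 91.8%), against a background of 26.1%, and 21 of the 22 were also marked at their 5'-most start. Of all 30 genes of the list, members or not, 28 were marked there, so that count does not set the members apart. The list was drawn up with earlier results of these data known, so its share is a description. Genes with many internal promoters have more places for a peak, and no list share was adjusted for this. Neurexins are presynaptic adhesion proteins whose long and short forms come from separate promoters. In Nrxn2 the internal peak (chr19:6496899-6503949, intronic), 79104 bases downstream, measured 7051 bases (7025 and 7178) against 3122 (3081 and 3095) at the 5'-most start. In Nrxn3 the most distal peak, 1089607 bases downstream, measured 3238 bases (2447 and 3338) and the 5'-most 4629. The short-form peak was thus the wider in Nrxn2 in both pools and the narrower in Nrxn3.

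Among the scaffolds, Shank2 was the member with no 5'-most peak. It carried 2 internal peaks, of 3789 bases (3898 and 3830) at 173601 bases and of 5433 bases (5354 and 5460; chr7:144283452-144288884) at 282511 bases, both at intronic starts, and the internal start at 29336 bases was unmarked. Dlg4 had its wide peak at the 5'-most start (4600 bases), with internal peaks of 211, 939 and 1584 bases. Rims2, of the presynaptic active zone, had internal peaks of 4373 bases (3843 and 4693) and 1842 bases (1786 and 2608) and a 5'-most peak of 3298. Dlgap4, of the postsynaptic density, had 3108 bases inside and 3401 at its 5'-most start.

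**Figure D5:**
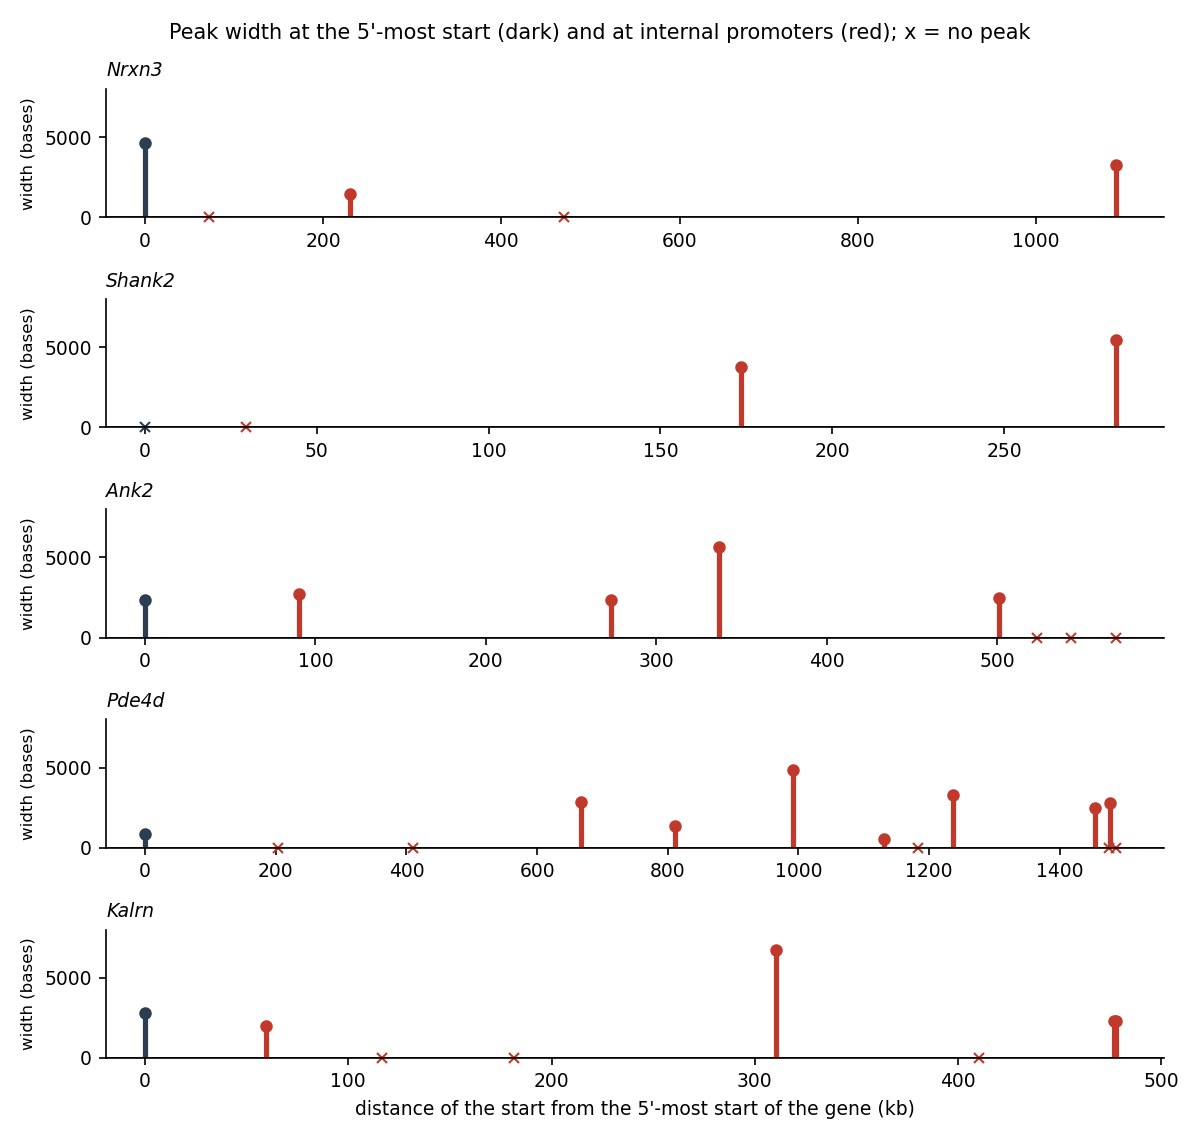
Peak width in bases (y axis) at the 5'-most start (dark) and at each internal promoter (red) by distance from the 5'-most start in kb (x axis), in 5 genes, with crosses at starts that carried no peak. Shank2 has no peak at its 5'-most start and peaks of 3789 and 5433 bases inside; in Pde4d the 5'-most peak of 830 bases is narrower than 6 of the 7 internal peaks.

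Kinase, phosphodiesterase and GTPase signalling genes were members in 15 of 23 cases (65.2%, 44.9 to 81.2%), against the background of 26.1%. Pde4d, a phosphodiesterase that breaks down cyclic AMP, had 7 marked internal promoters of 12, as many as Tcf4. Its 5'-most peak of 830 bases was absent from pool J and measured 825 bases in pool I. The internal peaks lay from 666693 to 1476896 bases downstream, and the widest (chr13:109440151-109445020) measured 4870 bases (4322 and 4916). Its narrowest, of 516 bases, was absent from pool I. Pde4a, whose sequences are shown above, carried 2358 bases (2412 and 2344) at an internal start with a CpG ratio of 0.208, and 2757 bases (2688 and 2780) at its 5'-most start with a ratio of 0.720. Kalrn, a guanine nucleotide exchange factor for small GTPases, had an internal peak of 6711 bases (4269 and 7988) against 2787 at its 5'-most start. Ntrk3, the receptor of neurotrophin-3, was marked at its internal start (5287 bases, 5183 and 5300) and not at its 5'-most start.

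Cytoskeleton and ankyrin genes were members in 19 of 25 cases (76%, 56.6 to 88.5%), against the background of 26.1%. At the 5'-most start 18 of the 19 were marked, and so were 28 of all 30 genes of the list. In Ank2 4 of 7 internal promoters were marked, the widest with 5645 bases (5216 and 5758) against 2320 at the 5'-most start. The 3 unmarked ones were exonic with no complete start. Dst carried 2980 bases (2941 and 2932) inside and 3480 (3324 and 3684) at its 5'-most start. Dmd, which encodes dystrophin, was the member with no 5'-most peak. Its internal peak (chrX:85047945-85049464, at an intronic start) lay 2099543 bases downstream and measured 1520 bases (1514 and 1497), at a start with a CpG ratio of 0.445 against 0.131 at the 5'-most start.

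Channel and receptor genes were members in 10 of 19 cases (52.6%, 31.7 to 72.7%), against the background of 26.1%. Of these, 5 of the 10 had no 5'-most peak, against 31.6% of all member genes. Of all 30 genes of the list, 25 were marked at the 5'-most start. Among the 5 were Cacna1c and Cacna1a, pore subunits of voltage-gated calcium channels, Kcnma1, a calcium-activated potassium channel, and Kcnip1, a partner of potassium channels. The stronger of 2 Cacna1c internal peaks (chr6:119104993-119108569, at an intronic start) measured 3577 bases (3603 and 3575). The internal peak of Cacna1a measured 4718 (4378 and 4667) and that of Kcnma1 5421 (5236 and 5432). None of these 3 genes had a 5'-most peak in either pool. Their internal CpG ratios were 0.933, 0.698 and 0.780, and those at the 5'-most starts 0.306, 0.181 and 0.106. At Cacna1c 12 transcripts began at the marked internal promoter and at Kcnma1 19, while 3 further internal promoters of each were unmarked.

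Transcription factor and chromatin genes were members in 18 of 28 cases (64.3%, 45.8 to 79.3%), against the background of 26.1%. At the 5'-most start 16 of the 18 were marked, as were 36 of all 38 genes of the list. Zbtb20 was marked at 6 of 7 internal promoters by 10 peaks of 295 to 2428 bases. Rora, an orphan nuclear receptor, was marked 635896 bases downstream by 2855 bases (2524 and 2948) and at its 5'-most start by 3350. Glial and myelin genes had few internal starts, and 3 of 6 were members (50%, 18.8 to 81.2%) with weak peaks, against the background of 26.1%. Aldh1l1 had 776 bases at an enrichment of 4.46, Mbp 361 bases at 3.64 and Bcas1 1279 bases at 3.61, and these peaks of Mbp and Bcas1 were absent from pool J.

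Genes known for several promoters were members in 18 of 24 cases (75%, 55.1 to 88%), against the background of 26.1%. Of the 18, 6 lacked a 5'-most peak, among them Gnas, Mest, Dmd, Shank2 and Runx1. That share was near the 31.6% of all member genes, and 19 of all 30 genes of the list were marked at the 5'-most start. In Gnas, an imprinted locus that encodes the stimulatory G-protein alpha subunit, neither the 5'-most start nor the start 13539 bases downstream was marked, although their CpG ratios were 0.683 and 0.657. A peak of 5349 bases (5277 and 5742; chr2:174326771-174332119) covered an intronic start at 43448 bases and an exonic one at 45686 bases. Mest, also imprinted, carried 3161 bases (2917 and 3499) at an internal start 14503 bases downstream. Bdnf, a neurotrophin, was marked at a group of 5 internal starts by 3217 bases (3318 and 3180) and at its 5'-most start by 3641, and its most distal internal start was unmarked. In Ppargc1a, a coactivator of mitochondrial genes, the internal peak of 2577 bases (2519 and 2551) exceeded the 5'-most peak of 447 bases.

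The 5 members farthest from the 5'-most start, Dmd among them, lay at least 1548676 bases away. In Fgfr2, a fibroblast growth factor receptor, the peak at the start of 13 transcripts lay 2861493 bases downstream of the 5'-most annotated start, and measured 3140 bases (2512 and 6738). The 5'-most start of Fgfr2 rests on a single very long annotated transcript, which sets this distance. Cntnap2 followed at 2185096 bases with a peak of 806 bases (692 and 795), against 3859 bases at its 5'-most start. The Ptprd peak at 1867718 bases was narrow (596 bases) and absent from pool J. Lsamp, at 1548676 bases, had 3178 bases at a CpG ratio of 0.385.

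The labelled tissue was checked against markers of its cell types. A start was marked in 10 of 10 genes for cortical excitatory neurons, 7 of 8 for inhibitory neurons (not Vip), 5 of 6 for astrocytes (not Gfap), 4 of 6 for oligodendrocytes, 3 of 5 for microglia, 4 of 4 for endothelium and 0 of 6 for other tissues. Which of these cells carry a given internal peak was not tested.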

How the data were processed

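H3K4me3 was measured in 4 libraries from 2 pools of left cerebral cortex, grouped by pool, per the labels. The authors deposited 4 peak lists on mm10: pool J alone (21573 peaks), pool I alone (24508), both pooled, and a replicated list of 25446, per the labels and the text files deposited with the libraries. The aligner and peak caller were not given in the sources used here. Read depth is unknown. The authors' enrichment value of a peak is a ratio, taken as fold over control because the deposited text files list such tracks. It was used only to describe and rank peaks of 1 list. The deposited −log10 q served as a filter. A q above 0.05 was held by 361 replicated peaks, 9 of them at internal promoters. The deposited score, for display, was not used. Positions are counted from 1.

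Starts, exons and support levels came from GENCODE release M21, and the 5'-most start was taken over all transcripts of a gene. Sequence came from the RefSeq genome of GRCm38.p6, in windows of 1000 bases either side of a start. Peaks were assigned by overlap of at least 1 base and shares given with 95% Wilson intervals (Python 3.11.15, NumPy 2.4.6, SciPy 1.17.1, Matplotlib 3.10.9). The selection was checked on artificial gene models. With 1 list per pool no test was made.

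Named genes were the 10 peaks of highest enrichment, the 10 widest, the 10 of highest enrichment with an unmarked 5'-most start, the 5 farthest, up to 4 per list and the 3 on each side of the distance threshold. Further members of the lists (Nrxn3, Ank2, Kalrn, Bdnf, Mest, Zbtb20, Ppargc1a, Kcnip1), and H60b, were named after their values were seen. Some genes that the rule takes are not reported here. The members and lists were chosen with earlier results of these data known. The alternatives changed the window, the distance, the overlap, the q filter, the list and the transcripts used.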

Additional observations from a re-analysis of the deposited data

How the results depend on the processing

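The number of members (1364) and of genes (1003) stayed within 1.5 times under all 14 alternatives, at 1042 to 1722 and 746 to 1293. The share of genes with a marked internal promoter was 24.6% and 23.1% with peaks of −log10 q of at least 5 and 10, and 24.7% in the pool J list (without pool I). It was 24.7% with the 5'-most start taken over coding transcripts, 39.9% with transcripts tagged basic, 23.3% when a start of any other gene excluded a peak, and 38.2% when starts tagged as not found were left out, an alternative chosen after seeing the data. The share of genes with a marked 5'-most start was 65% and 72.8% at distances of at least 5000 and 20000 bases and 64.2% at −log10 q of at least 10. In the other 11 it stayed within its 95% interval, at 66.2 to 70.9%.

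Median width was 1738 and 1528 bases with windows of 500 and 2500 bases, and 1626 with a distance of 5000. It was 1829 and 1967 at −log10 q of at least 5 and 10, 1760 in the pool I list (without pool J), 1758 for basic transcripts and 1640 with other genes' starts excluded. Median enrichment was 13.3 and 10.7 with these windows, 12 at 20000 bases, 14.2 and 15.5 with these q filters, 13.9 for basic transcripts, 12 with other genes excluded and 12.9 without starts tagged as not found. The enrichment was not compared between lists.

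The median ratio of internal to 5'-most width was 0.904 at 5000 bases, 1.03 and 1.08 with the q filters, 1.01 for basic transcripts, 0.918 with other genes excluded and 0.991 without starts tagged as not found, so which peak is wider depends on these choices. The median CpG ratio was 0.405 with the window of 2500 bases, 0.410 at 20000 bases, 0.439 and 0.463 with the q filters, 0.437 in pool J, 0.409 with coding 5'-most starts, 0.442 for basic transcripts and 0.408 with other genes excluded. The q filters and the basic set keep fewer peaks by construction; otherwise the cause was not tested.

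No paired analysis was possible because each pool gave 1 list and no result came from a test. Depth was unknown, which leaves the limit of detection at starts without a peak unknown too. Peaks at internal starts depend on the annotation: starts that M21 lacks are counted as outside, and a 5'-most start from a rare transcript sets the distance. Technical replicates could not be compared.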

Other observations

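Several genes carried a series of marked internal promoters. At least 2 were marked in 204 genes, and 241 genes had at least 2 internal peaks. After Pde4d and Tcf4 came Zbtb20 with 6 of 7, and Abr, Celf2, Mcf2l, Mef2c, Plec and Zmynd8 with 5 each. Of these 9 genes Celf2, Mef2c and Zmynd8 had no 5'-most peak, beside a share of 31.6% among all member genes. In Celf2, an RNA-binding splicing factor, all 5 internal promoters were marked, from 113365 to 787354 bases downstream. The widest of its peaks measured 6251 bases (4298 and 6267, pool J first) at a start with a CpG ratio of 0.986, and the others, at starts with ratios of 0.221 to 0.311, measured 1193 to 4150 bases. These genes were named after their values were seen.

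By chromosome, the marked share of internal promoters went from 15% (10.9 to 20.3%) of 220 on chromosome 12 to 31.2% (25 to 38.2%) of 186 on chromosome 18, with 19.5% (14.5 to 25.7%) of 190 on the X chromosome. These extremes were picked after the values were seen.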
